A study of Mus musculus with 8 samples.

Results

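Aminoacyl-tRNA synthetases were examined as a family in RNA-seq of fully grown germinal vesicle (GV) oocytes, the stage at which mouse oocytes are arrested before meiotic maturation. The family was taken as 36 genes found by gene name, 20 of which encode cytosolic enzymes or subunits and 16 mitochondrial enzymes, of 46078 genes in the count table. The list does not hold every synthetase gene of the mouse. All 36 genes passed the filter on low counts (0.2 CPM, counts relative to the library total, reached in 2 or more libraries), as did 19241 genes of the whole table. Of the 36, 35 passed through the control libraries alone, and 1, Hars2, passed only through the KO libraries.

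Control oocytes came from Zp3-Cre mice, in which Cre recombinase is expressed from the Zp3 promoter in growing oocytes. CNOT7&8 KO oocytes came from mice with floxed Cnot7 and Cnot8 alleles crossed with that Zp3-Cre line, so the groups shared the Cre transgene and differed in the alleles of these deadenylase subunits of the CCR4–NOT complex. Females of 4 weeks of age on a C57BL/6J background were primed with gonadotropin, and oocytes were freed of cumulus cells with hyaluronidase and pipetting. Each group had 4 libraries of 100 oocytes each. The sources do not say whether the libraries of a group came from separate animals, so p-values measure the spread between these libraries, which may in part be technical.

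Synthetases join each amino acid to its tRNA and so supply the substrates of translation. Cells keep separate enzymes for the cytosol and for the mitochondrial matrix, all encoded in the nucleus, although the genes for the glycyl and lysyl enzymes (Gars and Kars) supply both compartments. In the cytosol, several of the enzymes are held in the multi-synthetase complex by the scaffold proteins Aimp1, Aimp2 and Eef1e1. Structurally they fall into class I and class II. In other cells, the transcription factor ATF4 raises the mRNAs of many cytosolic synthetases when amino acids are scarce. A growing oocyte makes and stores protein and mRNA, and its synthetase mRNAs at the GV stage are part of that maternal store.

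Total counts spanned 14943671 to 44092144 over the controls and 8639444 to 26784110 over the KO group. A floor of 3 counts corresponded to between 0.068 and 0.347 CPM, which covers counting error only. Of the targeted genes, Cnot8 fell from 168 ± 20.01 to 35.2 ± 1.40 CPM and Cnot7 from 933 ± 77.3 to 719 ± 70.8 CPM (SD, n = 4 per group), with no overlap between groups. The counts are given per gene, and the part of single exons in the remaining Cnot7 level was not tested. Oocyte markers were present at a summed 18214 to 19319 CPM in controls and 17462 to 20604 CPM in KO libraries. Of the 12 markers, 7 fell and 1 rose by adjusted p (24.1% and 31.2% of all genes tested), with a median log2 fold change of -0.33. Mos was downregulated by -1.28. Of 16 granulosa and cumulus markers, 14 were tested, of which 7 were upregulated (23.8% of all genes tested) and 1 fell by adjusted p (24.1%). The sum of these markers was 292 to 349 CPM in controls and 487 to 581 CPM in KO libraries. The upregulated markers were Ptgs2, Fst, Inha, Fshr, Kitl, Inhba and Nr5a2, at 3.65, 2.20, 1.91, 1.56, 1.43, 1.12 and 1.11 on the log2 scale. KO and control libraries overlapped for Fst, Inha and Inhba. Cyp19a1 was lower at -0.90, and Foxl2 had at most 3 counts in each library. The 8 markers of theca, stroma and blood summed to 83.9 to 94.3 CPM in controls and 87.3 to 102 CPM in KO libraries, with Hba-a1 and Hbb-bs at no more than 3 counts in each. Of the 6 tested, Ptprc was upregulated, from 0.122 ± 0.147 to 0.616 ± 0.343 CPM. Control replicate 1 and KO replicate 4, the deepest library of each group, deviated from their group means together (r = 0.37 across genes, which are not independent replicates). The part of these cell type markers in the results on synthetases was not tested. Levels and fold changes were scaled by library totals with edgeR's TMM factors, and the marker sums by library totals alone. All are relative amounts, so fewer molecules per oocyte and a larger pool of other RNAs cannot be told apart.

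Sequence elements that the choice of genes did not use are shown before the levels. The search was for TGATGNAA on either strand, the core of the composite element bound by ATF4 with C/EBP factors, in RefSeq promoters of GRCm38.p6 (250 bases before to 50 bases after the annotated start). Promoters were found for 27 of the 36 genes. The motif was present in 399 of 12630 promoters of tested genes (3.16%) and in 5 of the 27 synthetase promoters (18.5%), all 5 among the 13 cytosolic and none among the 14 mitochondrial genes. The windows below are written along the gene's own strand with the motif, or its reverse complement, in capitals.
Yars, chr4:129189895-129189924, plus strand: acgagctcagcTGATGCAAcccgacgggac
Gars, chr6:55037960-55037989, plus strand: tggctgcgctaTTTCATCAtgcaccgggcg
Aars, chr8:111033840-111033869, plus strand: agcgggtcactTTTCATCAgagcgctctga
Iars, chr13:49682126-49682155, plus strand: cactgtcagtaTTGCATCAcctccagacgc
Tars, chr15:11399655-11399684, minus strand: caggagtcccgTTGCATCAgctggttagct
In the 5 windows shown the motif begins within 30 bases of the annotated start. The genes with the motif did not move together, since Yars was upregulated, Gars and Tars fell by less than 2-fold, and Aars and Iars did not pass the test. A match of these letters is a description of the sequence and does not show a bound site.

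The cytoplasmic polyadenylation element (CPE), UUUUAU in mRNA and TTTTAT in the genome, is the sequence through which CPEB proteins control the poly(A) tails of maternal mRNAs. In the longest annotated 3′UTR of each gene (GRCm38, GENCODE vM21), it was present in 14 of 36 synthetases (38.9%) and in 8506 of 15134 tested coding genes (56.2%). Synthetase 3′UTRs were shorter, with a median of 526.5 bases against 1119, and per kilobase of 3′UTR the copies were similar, at 0.946 in the family and 1.003 over all tested coding genes. Among the 8 downregulated synthetases, whose 3′UTRs had a median of 231 bases, only Sars held the element, with 2 copies. Among the 6 upregulated synthetases, Mars2 held 11 copies, Iars2 4 and Nars2 1, and Yars, Ears2 and Hars2 had none. The sites nearest to the end of the 3′UTR in these 4 genes are given with the element in capitals, with positions of the element itself.
Mars2, chr1:55248404-55248409, plus strand: ctggtaagtattTTTTATatatgctataga
Iars2, chr1:185285532-185285537, minus strand: tcatttagtcagTTTTATtccccccaaaaa
Nars2, chr7:97064063-97064068, plus strand: tttttaatttaaTTTTATgtatctggttgt
Sars, chr3:108424930-108424935, minus strand: taacagcatgaaTTTTATggttgggggcca
The site of Mars2 leaves 61 bases to the annotated end and that of Sars 65, whereas 690 bases follow the site of Nars2 and 806 that of Iars2. Over all tested coding genes the element was present in 40.2% of downregulated, 59.3% of upregulated and 56.8% of other genes, with median 3′UTRs of 664, 1267 and 1127 bases, so element and length moved together in the whole table as well.

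Levels between genes were compared per kilobase of the longest coding transcript, as TMM-scaled CPM per kb (TMM is the library scaling of edgeR). In control oocytes the cytosolic enzymes spanned a range from Qars, the glutaminyl enzyme, at 160 ± 12.2 CPM per kb to Yars, the tyrosyl enzyme, at 0.137 ± 0.0666 (SD, n = 4 here and for the levels that follow). Rars (arginine) followed Qars at 118 ± 15.7 and Farsb, the beta subunit of phenylalanyl-tRNA synthetase, at 110.5 ± 13.0, and these neighbours did not differ beyond their spread. Iars (isoleucine) had 72.9 ± 9.66 and Nars (asparagine) 67.2 ± 8.90. A group of 5 genes within one another's spread came next, with Eprs at 44.4 ± 7.67, Kars at 42.3 ± 3.23, Gars at 42.3 ± 9.25, Dars at 41.4 ± 4.25 and Sars at 39.4 ± 7.04. The lowest levels below Hars (10.7 ± 1.59) were those of Mars at 5.57 ± 0.714, Vars at 1.11 ± 0.271 and Yars.

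In CNOT7&8 KO oocytes the order at the top changed. Iars stood first at 83.2 ± 10.7 CPM per kb, and Rars at 75.5 ± 8.26 and Qars at 75.1 ± 1.84 were within its spread. Farsb moved from the third to the sixth place at 41.4 ± 5.24, behind Nars at 51.9 ± 3.34 and Dars at 44.97 ± 2.34. Yars and Vars remained the lowest, at 0.569 ± 0.140 and 0.529 ± 0.123, which overlapped.

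The mitochondrial enzymes were lower as a group. Only 3 exceeded 10 CPM per kb in control oocytes, Lars2 (leucine) at 43.8 ± 25.1, Fars2 (phenylalanine) at 33.1 ± 4.16 and Rars2 (arginine) at 23.6 ± 2.78. The other 13 lay between 5.998 ± 1.82 for Sars2 and 0.0758 ± 0.0867 for Hars2. In KO oocytes the same 3 led, and Ears2 (glutamate) rose from the seventh to the fourth place, Iars2 from the thirteenth to the fifth and Nars2 from the fifteenth to the seventh, while Aars2 went from the eighth to the fourteenth.

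**Figure D1:**
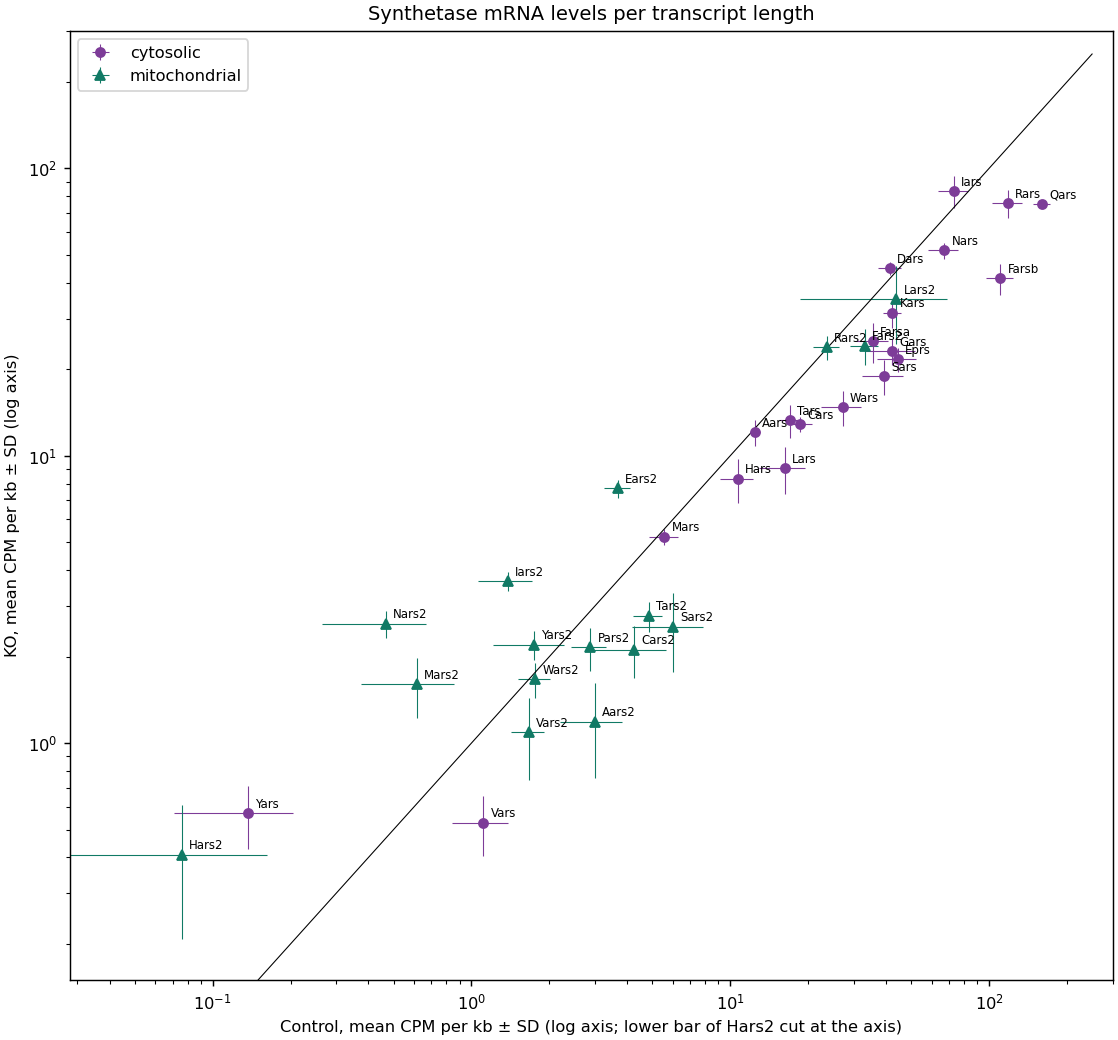
Level of each synthetase mRNA in control (x axis) and CNOT7&8 KO oocytes (y axis), both as mean TMM-scaled CPM per kb of transcript on log axes with SD bars (n = 4), circles for cytosolic and triangles for mitochondrial enzymes; the line marks equal levels. Most circles lie on or below the line, with Farsb at 110.5 in controls and 41.4 in KO, and the triangles of Nars2, Iars2, Mars2 and Ears2 lie clearly above it. Hars2 also lies above it, but near the floor, at 0.0758 ± 0.0867 in controls.

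Summed over the 20 cytosolic genes, the level was 973, 864, 857 and 837 CPM per kb in control replicates 1 to 4 and 573, 602, 538 and 563 in KO replicates 1 to 4. Every KO library was below every control library, and the mean fell from 883 ± 61.4 to 569 ± 26.6 CPM per kb (SD, n = 4), 64.4% of the control level. The sum over the 16 mitochondrial genes was 88.6, 145, 159 and 139 CPM per kb in controls and 125, 128, 104 and 102 in KO libraries. These groups overlapped, at 133 ± 30.6 in controls and 115 ± 13.4 in KO, and control replicate 1, in which Lars2 was low, was the lowest of all 8. The share of the mitochondrial genes in the summed level was 8.34%, 14.4%, 15.6% and 14.2% in controls and 17.9%, 17.5%, 16.3% and 15.4% in KO libraries, which overlapped between control replicate 3 and KO replicate 4. Lars2 alone gave 7.77, 53.7, 65.8 and 47.9 CPM per kb of the mitochondrial sums in controls and 42.9, 45.6, 25.6 and 26.2 in KO libraries. The overlap of sums and shares was not examined without Lars2.

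A gene was counted as differentially expressed (DEG, upregulated or downregulated) when its adjusted p in edgeR's quasi-likelihood test was at most 0.05 and its fold change at least 2. By this rule 6 of the 36 synthetases were upregulated, against 23.8% of all genes tested, and 8 were downregulated, against 6.56%. Among the 6 is Hars2, which passed the filter only through the KO libraries. By adjusted p alone, 6 were higher (31.2% of all genes) and 20 lower (24.1%), and 10 did not pass. In 5 genes each KO library was above each control library (27.0% of all genes tested) and in 16 each was below (21.4%). The median log2 fold change was -0.42 for the family and 0.12 for all genes tested.

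The same counts were taken for each compartment, with Hars2 among the mitochondrial genes that rose. Of all genes tested, 31.2% rose and 24.1% fell by adjusted p, and 23.8% were upregulated and 6.56% downregulated. The share of mitochondrial genes that rose by adjusted p was near that of all genes. Of the 20 cytosolic genes, 14 fell and 1 rose by adjusted p, with a median of -0.52, and 5 were downregulated and 1 upregulated by at least 2-fold. Of the 16 mitochondrial genes, 6 fell and 5 rose, with 3 downregulated and 5 upregulated by at least 2-fold and a median of -0.20, whose sign turned to 0.068 with scaling by library size only and to 0.030 with TMM on genes of at least 10 CPM. Those settings moved the median of all genes from 0.12 to 0.41 and 0.37. Relative to the median of all genes, the cytosolic median was lower by -0.64 and the mitochondrial by -0.32 in the reported analysis, and by -0.65 and -0.34 under both settings. Over all alternatives these differences ranged from -0.90 with no filter to -0.44 with 1 CPM in 4 libraries for the cytosolic genes, and from -0.58 with no filter to -0.18 without control replicate 3 or KO replicate 3 for the mitochondrial genes. Without control replicate 1 and KO replicate 4, an analysis added after seeing the data, 15 cytosolic genes fell and 2 rose by adjusted p (median -0.52), and 7 mitochondrial genes fell and 5 rose (median -0.25). The comparison of list medians was given no test.

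With the TMM scaling of the reported analysis, abundant mRNAs as a whole were lower in KO oocytes. The counts were therefore set beside genes of like abundance, with that scaling alone. Whether abundant mRNAs were lower under other scalings was not tested. With library size only, the all-gene median went from 0.12 to 0.41. Of 8728 genes that averaged 10 CPM or more, 20.9% rose and 41.9% fell by adjusted p, with a median log2 fold change of -0.26. Of the 18 cytosolic synthetases at that level, 13 fell and none rose, with a median of -0.52. The mitochondrial genes were not split by level. Ears2, Iars2 and Mars2 were under 10 CPM in controls and over it in KO oocytes, and Aars2, Sars2 and Tars2 the reverse. The change itself would thus set the side on which they fall. Of all 10513 tested genes under 10 CPM, 4170 rose and 972 fell by adjusted p, and 3740 were upregulated and 593 downregulated. Rises were thus common among genes of low level in the whole table.

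**Figure D2:**
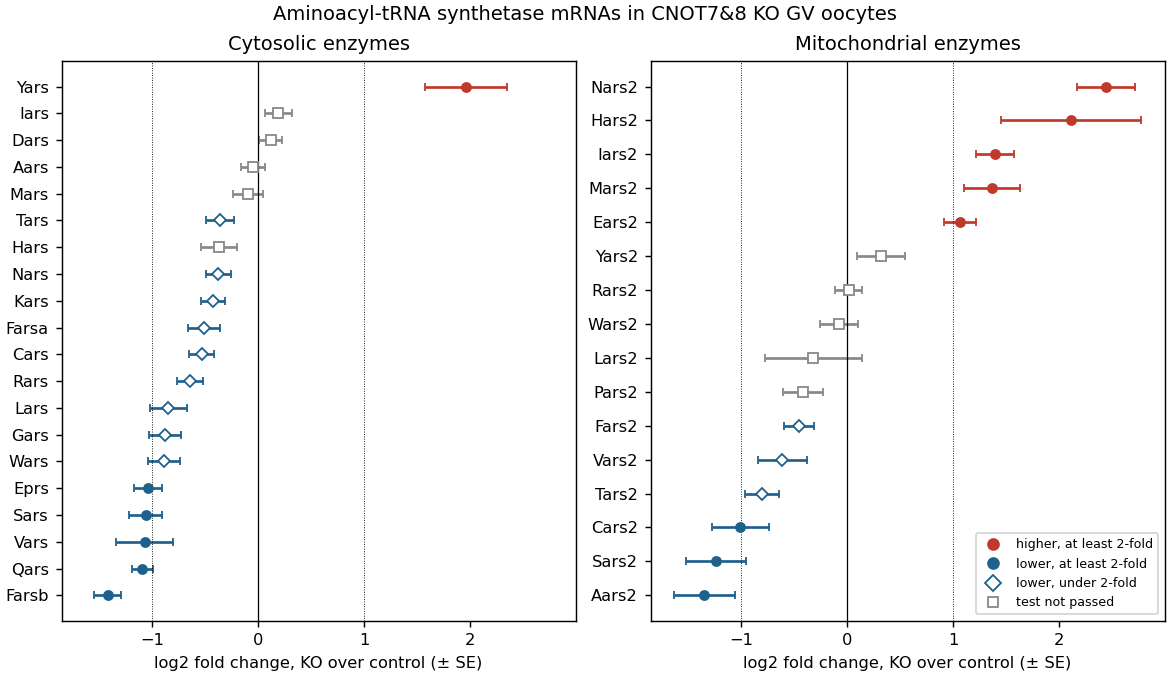
Log2 fold change of each synthetase mRNA in CNOT7&8 KO over control oocytes with its SE (x axis), cytosolic enzymes on the left and mitochondrial enzymes on the right, ordered by the change; filled circles passed the adjusted p and the 2-fold threshold, diamonds the adjusted p only, and squares neither. The cytosolic genes range from -1.42 (Farsb) to 1.96 (Yars) with 14 of 20 called lower, and the mitochondrial genes from -1.35 (Aars2) to 2.44 (Nars2) with calls in both directions.

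Farsb (ENSMUSG00000026245, chromosome 1 of GRCm38 from 78417975 to 78488897, minus strand) showed the largest decrease. It had 263, 207, 220.1 and 209 CPM in control replicates 1 to 4 and 90.2, 94.6, 70.4 and 81.6 CPM in KO replicates 1 to 4. All KO libraries were far below the controls, with a log2 fold change of -1.42 (SE 0.13, adjusted p = 3.05e-06). Its partner Farsa, the alpha subunit of the same tetrameric enzyme, had 54.1, 76.5, 65.9 and 63.5 CPM in controls and 49.6, 46.1, 51.8 and 35.4 CPM in KO libraries, which did not overlap but lay closer together. Farsa changed by -0.51 (SE 0.15, adjusted p = 0.0119). Within libraries, the log2 ratio of Farsb to Farsa CPM was 2.28, 1.43, 1.74 and 1.72 in controls and 0.86, 1.04, 0.44 and 1.21 in KO libraries, a mean difference of -0.91. This is a description without a test, since Farsb was taken up as the gene with the largest decrease. A stretch of 248 exonic bases of Farsb (9.47%) lies opposite to Sgpp2, which had a mean of 2.42 CPM in controls and 1.67 in KO libraries. The strand setting of the counting is not stated in the sources used here, and reads of overlapping genes cannot be assigned with certainty.

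Qars, Eprs and Sars were the other abundant genes that were downregulated. Qars (ENSMUSG00000032604, chromosome 9 from 108507706 to 108515941, plus strand) had 498, 425, 443 and 425 CPM in controls and 209.7, 209, 205 and 218 CPM in KO libraries. The KO values lay within a narrow band at 47.0% of the control mean, and the log2 fold change was -1.09 (SE 0.10, adjusted p = 2.76e-06). Eprs (ENSMUSG00000026615, chromosome 1 from 185363044 to 185428360, plus strand) encodes the enzyme that charges both glutamate and proline tRNAs. It had 274, 203, 204 and 191 CPM in controls and 115, 107, 92.0 and 112 CPM in KO libraries, and changed by -1.04 (SE 0.13, adjusted p = 4.5e-05). Control replicate 1 stood above the other control libraries here, and without it the change of Eprs was -0.91, under 2-fold. Without KO replicate 3 it was -0.94.

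Sars (ENSMUSG00000068739, chromosome 3 from 108424865 to 108445209, minus strand), the seryl enzyme, had 103, 153, 149 and 157 CPM in controls and 72.2, 68.2, 75.6 and 54.0 CPM in KO libraries. Control replicate 1 was the lowest control and KO replicate 4 the lowest KO library, and the groups did not overlap (log2 fold change -1.06, SE 0.15, adjusted p = 0.000118). Without KO replicate 4 the change of Sars was -0.96, under 2-fold. Vars (ENSMUSG00000007029, chromosome 17 from 35000987 to 35016322, plus strand), the valyl enzyme, was low, with 3.02, 4.64, 5.103 and 5.61 CPM in controls and 2.17, 2.36, 2.71 and 1.499 CPM in KO libraries. The highest KO library was just below the lowest control library, and the log2 fold change was -1.07 (SE 0.27, adjusted p = 0.00477). It was -0.96 without control replicate 4 and -0.89 without KO replicate 4. With library size only, upper quartile factors or TMM on genes of at least 10 CPM, Qars, Eprs, Sars and Vars were still lower by adjusted p but changed by less than 2-fold, leaving Farsb as the downregulated cytosolic gene.

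Yars (ENSMUSG00000028811, chromosome 4 from 129189760 to 129219607, plus strand) was the upregulated cytosolic gene. It had 0.588, 0.247, 0.544 and 0.219 CPM in control, from 22, 5, 8 and 3 counts, and 2.17, 1.65, 1.17 and 1.63 CPM in KO libraries, from 20, 30, 19 and 48 counts. The groups did not overlap, and the log2 fold change was 1.96 (SE 0.39, adjusted p = 0.00113). The level stayed low in both groups, since Yars in KO oocytes was at 0.569 CPM per kb against 8.31 for Hars and 5.22 for Mars. The motif printed above for Yars begins at base 4 of the annotated transcript start in RefSeq.

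A further 9 cytosolic genes fell by less than 2-fold. Wars (tryptophan) had 59.4, 91.8, 76.3 and 80.6 CPM in controls and 44.4, 42.5, 46.4 and 33.4 CPM in KO libraries, a log2 fold change of -0.89 (SE 0.15). Gars had 133, 93.2, 87.2 and 88.6 CPM in controls and 50.9, 59.9, 49.3 and 59.6 CPM in KO libraries (-0.87, SE 0.15). Lars (leucine) had 83.8, 56.9, 56.3 and 60.8 CPM in controls and 39.0, 43.5, 27.8 and 33.6 CPM in KO libraries (-0.84, SE 0.17). In these 3 genes every KO library was below every control library. Control replicate 1 lay apart above the other controls for Gars and Lars, and was the lowest control for Wars.

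Rars, the second most abundant synthetase per length, had 297, 227, 244 and 228 CPM in controls and 163, 175, 134 and 164 CPM in KO libraries (-0.65, SE 0.12). Cars (cysteine) had 52.9, 67.9, 57.0 and 62.7 CPM in controls and 40.2, 43.2, 44.0 and 38.8 CPM in KO libraries (-0.53, SE 0.12). Kars had 90.6, 103, 86.1 and 91.1 CPM in controls and 63.4, 67.6, 80.9 and 64.0 CPM in KO libraries (-0.43, SE 0.12). Again no values overlapped, although for Kars the highest KO library came close to the lowest control library. Nars had 220.2, 178, 165 and 174 CPM in controls and 142, 148, 129 and 149 CPM in KO libraries (-0.37, SE 0.11, no overlap). Tars (threonine) had 58.9, 71.4, 71.8 and 70.7 CPM in controls and 53.8, 59.3, 56.6 and 43.0 CPM in KO libraries, with an overlap of control replicate 1 and KO replicate 2. Its change of -0.36 (SE 0.13, adjusted p = 0.032) was the least firm of the 14. It no longer passed (adjusted p from 0.0563 to 0.122) in the 6 analyses that left out control replicate 2, 3 or 4 or KO replicate 1, 3 or 4, with changes between -0.37 and -0.25. With library size only or with TMM on genes of at least 10 CPM, the decreases of Cars, Farsa, Kars, Nars and Tars did not pass.

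The other 5 cytosolic genes did not pass the test. The values for Hars (histidine) were -0.37 (SE 0.17, adjusted p = 0.0818), for Mars (methionine) -0.09 (SE 0.14), for Aars (alanine) -0.05 (SE 0.11), for Dars (aspartate) 0.12 (SE 0.11) and for Iars 0.19 (SE 0.13, adjusted p = 0.219). The spread of KO and control values overlapped in each. The call of Hars depended on control replicate 1, without which it fell by 0.47 (adjusted p = 0.0217), and that of Iars on control replicate 1 (0.28, adjusted p = 0.0364) and KO replicate 3 (0.30, adjusted p = 0.0276), without either of which it was higher. Under library size only, Dars and Iars were higher at 0.40 and 0.48, and the sign of Mars and Aars turned to 0.20 and 0.24. Aars shares 1326 exonic bases (14.3%) with Exosc6 on the same strand. Iars has a near-identical pseudogene, Gm4849, with 96.0% identity over 1656 bases. Gm4849 had 818 counts over all libraries against 56427 for Iars and rose by 2.04 on the log2 scale, so the reads counted on it are few beside those of Iars.

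By complex and class, the decreases were spread over the cytosolic genes. Of all genes tested, 24.1% fell and 31.2% rose by adjusted p, and of genes of at least 10 CPM, 41.9% and 20.9%. The groups by complex and class are small and were given no test. Of the 8 members of the multi-synthetase complex in the list, 5 fell and 3 (Mars, Dars and Iars) did not pass, with a median log2 fold change of -0.54. Of the 12 other cytosolic genes, 9 fell, 1 rose and 2 did not pass, with a median of -0.52. The scaffolds of the complex also fell, Aimp1 by 0.37, Aimp2 by 0.51 and Eef1e1 by 0.56 on the log2 scale. Aimp2 passed narrowly (adjusted p = 0.0497). The cytosolic class I genes, with the bifunctional Eprs counted among them, had a median of -0.74 with 7 of 10 lower and 1 higher, and those of class II a median of -0.40 with 7 of 10 lower.

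**Figure D3:**
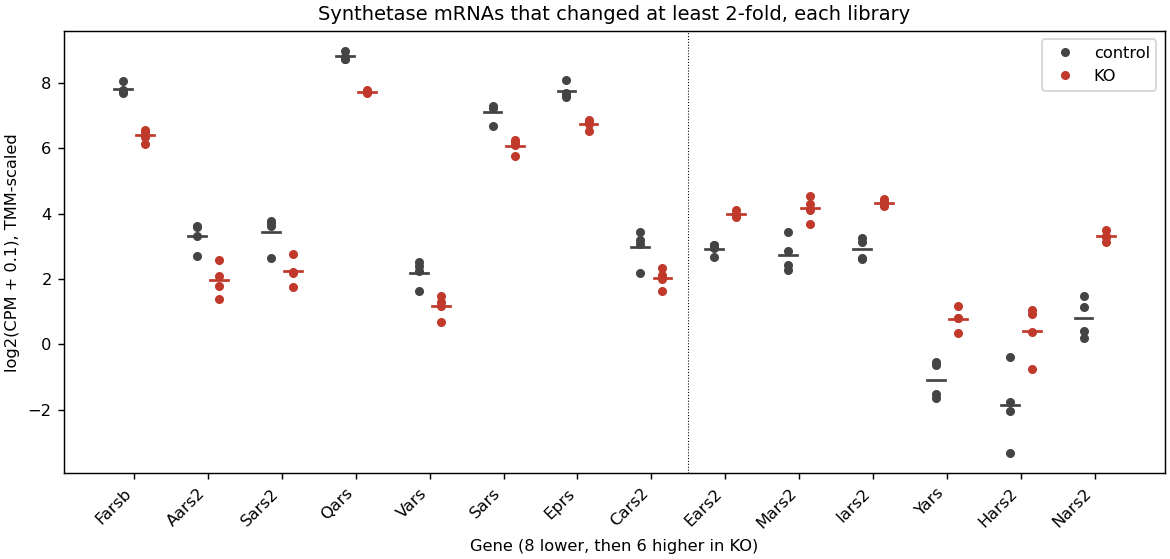
Level of the 14 differentially expressed synthetase mRNAs in each library as log2(CPM + 0.1) (y axis), dark points for the 4 control and red points for the 4 KO libraries, with a bar at each mean; 8 downregulated genes stand left of the dotted line and 6 upregulated genes right of it. The groups are apart for 11 of the 14 genes and overlap for Sars2, Cars2 and Hars2, where Hars2 has no count in control replicate 3.

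The mitochondrial enzymes that were upregulated were those for asparagine, histidine, isoleucine, methionine and glutamate. Nars2 (ENSMUSG00000018995, chromosome 7 from 96951505 to 97064758, plus strand) had 2.67, 1.04, 2.11 and 1.24 CPM in controls and 9.88, 9.67, 8.63 and 11.2 CPM in KO libraries. The lowest KO library was far above the highest control library, and the log2 fold change was 2.44 (SE 0.28, adjusted p = 1.91e-05), the largest of the family. Its exons share 284 bases (4.08%) with an antisense transcript, C230038L03Rik, which had 0.532 CPM in controls and 0.553 CPM in KO libraries. Iars2 (ENSMUSG00000026618, chromosome 1 from 185284726 to 185329396, minus strand) had 9.46, 6.02, 8.71 and 6.12 CPM in controls and 20.7, 18.5, 19.1 and 21.8 CPM in KO libraries. The groups were well apart, with a log2 fold change of 1.39 (SE 0.18, adjusted p = 4.91e-05). Iars2 shares 2034 exonic bases (22.9%) with Rab3gap2 on the opposite strand, and that gene fell from 271 ± 12.6 to 144 ± 8.996 CPM (log2 fold change -0.91), in the direction opposite to Iars2. Iars2 lies in the same region of chromosome 1 as Eprs, which was downregulated.

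Mars2 (ENSMUSG00000046994, chromosome 1 from 55237177 to 55248470, plus strand) had 10.7, 4.69, 7.14 and 5.24 CPM in controls and 19.4, 23.0, 12.8 and 17.1 CPM in KO libraries. Its 3′UTR of 9470 bases is the longest of the family, and the log2 fold change was 1.36 (SE 0.26, adjusted p = 0.00097) with no overlap. Ears2 (ENSMUSG00000030871, chromosome 7 from 122037213 to 122067263, minus strand) charges the mitochondrial glutamate tRNA and also puts glutamate on the glutamine tRNA. It had 7.62, 8.09, 8.03 and 6.26 CPM in controls and 17.3, 14.7, 15.1 and 15.9 CPM in KO libraries. Both groups were tight, and the log2 fold change was 1.06 (SE 0.15, adjusted p = 9.65e-05). Without control replicate 4 it was 0.99, just under 2-fold. Hars2 was near the floor, with 0.668, 0.197, 0 and 0.146 CPM in control, from 25, 4, 0 and 2 counts, and 1.95, 1.81, 0.493 and 1.19 CPM in KO libraries, from 18, 33, 8 and 35 counts. Control replicate 1 was above KO replicate 3, and the log2 fold change of 2.11 (SE 0.66, adjusted p = 0.0164) rests on few counts. Hars2 and Hars lie head to head on opposite strands and share 195 exonic bases.

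Aars2, Sars2 and Cars2 were the downregulated mitochondrial genes, and all were below 15 CPM. Aars2 (ENSMUSG00000023938, chromosome 17 from 45506841 to 45520843, plus strand) had 6.34, 11.9, 9.73 and 12.2 CPM in controls and 4.13, 3.35, 5.92 and 2.52 CPM in KO libraries. The groups did not overlap, and the log2 fold change was -1.35 (SE 0.29, adjusted p = 0.00174). Sars2 (ENSMUSG00000070699, chromosome 7 from 28741992 to 28753871, plus strand) had 6.18, 13.0, 12.1 and 13.5 CPM in controls and 4.45, 4.56, 6.72 and 3.24 CPM in KO libraries, with control replicate 1 below KO replicate 3 (-1.24, SE 0.28, adjusted p = 0.00274). Cars2 (ENSMUSG00000056228, chromosome 8 from 11513977 to 11550783, minus strand) had 4.46, 10.7, 8.98 and 8.23 CPM in controls and 3.91, 4.28, 4.93 and 2.96 CPM in KO libraries. In all 3 genes control replicate 1 was the lowest control and KO replicate 4 the lowest KO library. Cars2, at -1.01 (SE 0.27, adjusted p = 0.00746), was the least firm, with changes under 2-fold without control replicate 2 (-0.84), 3 (-0.95) or 4 (-0.997) and without KO replicate 1 (-0.99) or 4 (-0.86).

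Tars2, Fars2 and Vars2 fell by less than 2-fold. Tars2 had 12.7, 15.8, 17.1 and 16.9 CPM in controls and 8.47, 9.34, 10.2 and 7.77 CPM in KO libraries, all below the controls (-0.80, SE 0.16). Fars2, a monomeric enzyme unlike its cytosolic counterpart, had 57.3, 72.8, 73.7 and 77.2 CPM in controls and 56.8, 57.2, 50.2 and 41.2 CPM in KO libraries (-0.45, SE 0.14, adjusted p = 0.0161). Control replicate 1 was within 1 CPM of the highest KO libraries. Fars2 no longer passed without control replicate 4 (-0.40, adjusted p = 0.0503), KO replicate 3 (-0.43, adjusted p = 0.0531) or KO replicate 4 (-0.35, adjusted p = 0.0656), nor with library size only (-0.18, adjusted p = 0.334), TMM on genes of at least 10 CPM (-0.21, adjusted p = 0.277) or upper quartile factors (-0.36, adjusted p = 0.0518). Vars2 had 5.83, 7.65, 7.55 and 8.45 CPM in controls and 4.67, 3.73, 7.03 and 3.85 CPM in KO libraries, which overlapped (-0.61, SE 0.23, adjusted p = 0.0401). It no longer passed (adjusted p from 0.0778 to 0.131) without control replicate 2, 3 or 4 or KO replicate 1, 2 or 4, with changes between -0.60 and -0.49, nor with those 3 scalings (-0.33, -0.37 and -0.52, adjusted p = 0.281, 0.234 and 0.0744) or with a filter of 1 CPM in 4 libraries (-0.54, adjusted p = 0.0633). Vars2 shares 465 exonic bases (8.52%) with the antisense transcript Gm20483, which fell by 1.19 on the log2 scale.

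The remaining 5 mitochondrial genes did not pass. Lars2, the most abundant of them, varied most, with 30.3, 209, 256 and 186 CPM in controls and 167, 178, 99.7 and 102 CPM in KO libraries. Control replicate 1 was far below all other libraries. In that library 18S ribosomal RNA took 0.0504% of the counts, against 2.75% to 5.75% in the other controls, and in KO replicates 1 to 4 it took 6.94%, 2.01%, 1.89% and 0.559%. The part of residual ribosomal RNA in the level of Lars2 was not tested. The log2 fold change of Lars2 was -0.32 (SE 0.45, adjusted p = 0.573), and without control replicate 1 it was -0.67 (adjusted p = 0.0123). Rars2 had 50.9, 42.7, 44.2 and 38.4 CPM in controls and 41.0, 45.7, 41.4 and 50.1 CPM in KO libraries, which interleaved (0.02, SE 0.13). Its sign turned in 2 of the analyses with a library left out, and with library size only it was higher at 0.30 (adjusted p = 0.0446). The values for Pars2 were -0.41 (SE 0.19, adjusted p = 0.0779), for Wars2 -0.08 (SE 0.18) and for Yars2 0.32 (SE 0.23). Without control replicate 1, Pars2 fell by 0.50 (adjusted p = 0.0407). With library size only, Yars2 was higher at 0.61 (adjusted p = 0.0335) and the sign of Wars2 turned to 0.20. By class, the mitochondrial class I genes had a median of 0.02 and those of class II a median of -0.45.

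A ratio of plain counts within a library does not depend on how libraries are scaled. Each mitochondrial gene was therefore set against the cytosolic gene for the same amino acid (for Pars2 and Ears2, Eprs, and for Fars2, Farsa). The log2 CPM used carried a prior count of 2, a small addition scaled by library size. It alters the ratios of genes with few counts, such as Yars and Hars2. The comparison of pairs was chosen after the values had been seen. In 8 of 16 pairs the ratios of the groups did not overlap, 5 of them higher and 3 lower in KO. Of single genes in the whole table, 27.0% were higher and 21.4% lower without overlap, so the share among the pairs was near that of single genes. The share among ratios of other gene pairs was not computed. In 11 pairs the mean ratio of mitochondrial to cytosolic CPM was higher in KO. For Nars2 to Nars the log2 ratio was -6.31, -7.29, -6.23 and -7.02 in controls and -3.84, -3.92, -3.89 and -3.73 in KO libraries, a change of 2.87 or 7.30-fold. For Ears2 to Eprs it was -5.15, -4.63, -4.65 and -4.91 in controls and -2.73, -2.85, -2.597 and -2.81 in KO libraries, a change of 2.09 or 4.26-fold, since Ears2 rose while Eprs fell. The changes were 1.497 for Mars2 to Mars, 1.23 for Iars2 to Iars and 0.66 for Rars2 to Rars.

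In the other 3 pairs the cytosolic side gained. The changes were -1.497 for Yars2 to Yars, -1.29 for Aars2 to Aars and -0.43 for Tars2 to Tars. Each of the 8 pairs gave p = 0.0286 in a two-sided exact permutation test, the smallest p possible with 70 assignments, and 0.0571 after Benjamini-Hochberg adjustment over the 16 pairs, so none passed 0.05. Groups of 4 libraries without overlap always reach this smallest p, so it adds nothing to the lack of overlap. The pairs of Ears2 and Pars2 also share Eprs, so the 16 pairs are not independent. The other pairs overlapped. For Sars2 to Sars, both of which were downregulated, the ratio changed by -0.16, and for Fars2 to Farsa by 0.06.

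**Figure D4:**
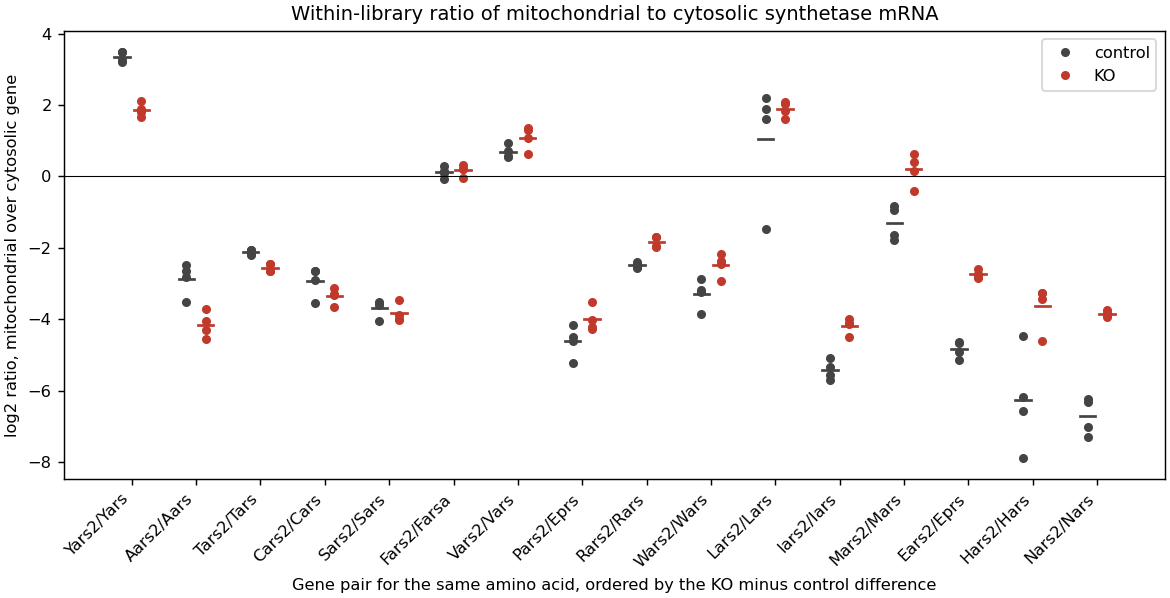
Within-library log2 ratio of the CPM of a mitochondrial synthetase to that of the cytosolic gene for the same amino acid (y axis) for 16 pairs, dark points for 4 control and red points for 4 KO libraries with a bar at each mean; transcript length was not taken into account, so only shifts between the groups are comparable. The pairs are ordered by the shift from Yars2/Yars (-1.497) to Nars2/Nars (2.87), and 8 of the 16 do not overlap.

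Other genes of tRNA charging were taken from lists of related genes, whose counts stand beside 23.8% upregulated and 6.56% downregulated of all genes tested, and 31.2% higher and 24.1% lower by adjusted p. Mitochondria lack a glutaminyl-tRNA synthetase and convert glutamate on the tRNA with the GatCAB amidotransferase. Of 4 tested genes for this step and for formylation of the mitochondrial methionine tRNA, the amidotransferase subunits Qrsl1 and Gatb were upregulated, and Gatc and Mtfmt did not pass. Qrsl1 had 2.67, 1.73, 3.67 and 1.24 CPM in controls and 5.32, 7.58, 8.82 and 7.39 CPM in KO libraries, with no overlap (1.64, SE 0.30, adjusted p = 0.000602). Gatb had 1.66, 1.33, 1.22 and 1.17 CPM in controls and 2.71, 3.30, 3.02 and 2.38 CPM in KO libraries (1.06, SE 0.24, adjusted p = 0.00281). Ears2, which makes their substrate, was upregulated as well. Of 5 genes for the selenocysteine tRNA, 2 rose, 2 fell and none changed by 2-fold.

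Of 5 genes that clear mischarged or stalled tRNAs, Dtd2 and Aarsd1 were upregulated, 1 fell and 2 did not pass. Dtd2, which removes wrongly charged amino acids, rose from 2.68 ± 0.356 to 8.50 ± 0.836 CPM (SD, n = 4; 1.67, SE 0.19). Aarsd1, related to the editing domain of alanyl-tRNA synthetase, was near the floor in control, at 0, 0, 0.272 and 0.0728 CPM, and had 0.434 to 0.802 CPM in KO libraries.

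Of 22 genes for tRNA processing and export, 9 rose and 10 fell by adjusted p (31.2% and 24.1% of all genes tested). By the 2-fold rule 7 were upregulated and 2 downregulated (23.8% and 6.56% of all genes tested), and the list was given no test. Those with the smallest adjusted p were Clp1, Xpot, Tsen15 and Rpp40. Clp1, a kinase of the tRNA splicing machinery, had 4.28, 2.91, 4.08 and 1.68 CPM in controls and 24.2, 21.5, 37.3 and 38.3 CPM in KO libraries (3.20, SE 0.29). Xpot, the exporter of tRNA from the nucleus, had 2.86, 1.28, 2.65 and 0.437 CPM in controls and 14.2, 14.7, 17.02 and 15.1 CPM in KO libraries (3.02, SE 0.37). The lowest KO library was well above the highest control library in both. Tsen15, a subunit of the tRNA splicing endonuclease, rose by 2.91 (SE 0.37), and Rpp40, a subunit of RNase P, by 1.15 (SE 0.16).

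Of 9 tested elongation factors, 7 fell and 1 rose, with a median of -0.71. Eef2 was downregulated, with 179, 441, 373 and 358 CPM in controls and 179, 158, 219 and 92.0 CPM in KO libraries, and control replicate 1 was inside the KO range (-1.06, SE 0.28, adjusted p = 0.00625). The pyrophosphatases that remove a product of tRNA charging fell, Ppa1 by 0.85 and the mitochondrial Ppa2 by 1.12 on the log2 scale. Ppa2 had 20.4, 18.8, 19.9 and 19.2 CPM in controls and 9.88, 10.6, 7.59 and 8.14 CPM in KO libraries.

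Of 18 genes of the amino acid response around ATF4, 3 rose and 6 fell by adjusted p, 9 did not pass, and the median was -0.23. Trib3 had 0.535, 1.73, 0.817 and 0.728 CPM in controls and 4.995, 3.41, 9.25 and 5.25 CPM in KO libraries (2.597, SE 0.40). Psat1, an enzyme of serine synthesis, rose by 2.57 (SE 0.35) from 0.365 ± 0.162 to 2.31 ± 0.311 CPM (SD, n = 4). Eif2ak4, the kinase GCN2 that senses uncharged tRNA, was downregulated from 113 ± 8.54 to 53.5 ± 2.89 CPM (SD, n = 4; -1.07, SE 0.11). Slc7a11, the cystine transporter, was downregulated by -1.09 (SE 0.14). Atf4 itself fell by 0.28 (adjusted p = 0.0358), and Asns and Ddit3 were at 0.34 and 0.04 without passing. The response genes moved in both directions. The part of ATF4 in the levels of these genes and of the synthetases was not tested.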

How the data were processed

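The authors mapped 150-bp read pairs to GRCm38 with the nf-core/rnaseq pipeline. The deposited values are counts per gene, neither normalized nor pooled. Submitters' processing notes name STAR 2.6.1d and edgeR 3.11. A stranded mRNA kit is named in the methods, and a stranded total RNA kit with ribosomal RNA removal in the labels. The counting tool, annotation and strand setting are not given in the sources used here. All columns could be assigned to a sample by their genotype and number.

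The test was edgeR's quasi-likelihood test (edgeR 4.0.16, limma 3.58.1, R 4.3.3) on all 8 libraries with TMM scaling, on genes that reached 0.2 CPM in 2 or more libraries, with Benjamini-Hochberg adjustment over all 19241 genes. The filter and thresholds follow the study, which used the exact test. The SE was taken from the F statistic. Log2 CPM in ratios carried a prior count of 2. Figures and tables used Python 3.11.15. Alternatives were edgeR's exact test, DESeq2 1.42.0, other scalings, filters and folds, the replicate block, and leaving out each library. Tested on simulated counts of 19241 genes for this comparison, the quasi-likelihood test found 195 of 200 genes given a log2 change of 2 and made 13 false calls. The changed genes averaged at least 1 CPM and went up and down in equal numbers. In the real data 4582 genes were upregulated and 1263 downregulated. The simulation therefore does not cover such uneven change, smaller changes or lower levels.

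GENCODE vM21 (GRCm38) held 98.2% of gene identifiers and gave lengths and 3′UTRs of at least 50 bases, and RefSeq gave promoters, the first listed of each gene. A further sequence is not reported here. No promoter was found for Cars, Hars, Hars2, Lars, Nars, Pars2, Rars, Vars and Wars. Synthetases with adjusted p of at most 0.05 and the 3 most abundant per length of each compartment are given by library, and of the other lists up to 4 DEGs are named, by adjusted p. Members and lists were chosen with earlier results of these data known.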

Additional observations from a re-analysis of the deposited data

Results flagged for a closer look

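In 5 of 72 groups of 4 libraries (36 genes in control and in KO), 1 library exceeded Dixon's critical value for a gap to the remaining 3, which chance alone would give in about 3.6 groups. In all 5 it was control replicate 1, the most deeply sequenced library. Its value was above the other controls for Eprs (274 CPM, others 191 to 204), Gars (133 CPM, others 87.2 to 93.2) and Lars (83.8 CPM, others 56.3 to 60.8), and below them for Sars (103 CPM, others 149 to 157) and Tars (58.9 CPM, others 70.7 to 71.8). No KO library was set apart in this way. Control replicate 1 also had the least 18S ribosomal RNA. The part of sequencing depth and of residual ribosomal RNA in these values was not tested.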

How the results depend on the processing

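With library size only, 1 cytosolic gene was downregulated, 3 were higher and 9 lower by adjusted p (median -0.24), and 1 mitochondrial gene was downregulated, 7 were higher and 3 lower by adjusted p and the median was 0.068. With TMM on genes of at least 10 CPM the cytosolic numbers were 1, 3 and 9 (median -0.28) and 7 mitochondrial genes were higher and 4 lower (median 0.030), and with upper quartile factors 1 cytosolic gene was downregulated (median -0.43). With a filter of 1 CPM in 4 libraries, which removed Hars2, 3 cytosolic genes were downregulated (median -0.45). At a fold change of 1.5 it was 9 cytosolic and 5 mitochondrial genes. Leaving out 1 library gave 3 to 5 downregulated cytosolic genes, 1 to 2 higher by adjusted p, a cytosolic median of -0.57 to -0.44 and a mitochondrial median of -0.28 to -0.059. Without control replicate 1 and KO replicate 4 together, added after seeing the data, 2 cytosolic genes were higher. Same-numbered libraries came from different genotypes and did not deviate together (r from -0.12 to 0.11). With the replicate block, the mitochondrial median was -0.090, 13 cytosolic genes were lower, Cars2 (-0.98) was under 2-fold and Tars did not pass. Of 647 values for the 36 genes, 579 kept their direction and call by adjusted p alone, and 37 lost and 16 gained that call. The 2-fold rule had no part in these counts. A further 15 values turned sign, all in genes without a call. These were Aars (0.24 with library size only, 0.050 with upper quartile factors, 0.20 with TMM on genes of at least 10 CPM, 0.023 with the 1 CPM filter, from -0.086 to 0.030 with 1 library left out, above 0 without KO replicate 4, and 0.021 without that library and control replicate 1), Mars (0.20, 0.0050 and 0.16 with those 3 scalings), Wars2 (0.20, 0.022 and 0.17 with them, and from -0.17 to 0.035 with 1 library left out, above 0 without KO replicate 3) and Rars2 (from -0.043 to 0.095 with 1 library left out, below 0 without control replicate 4 or KO replicate 4). Apart from the filter, which changes the genes tested, the cause of these shifts was not tested. With the 2-fold rule, Cars2 stayed differentially expressed in 8 of 18 alternatives and Eprs in 11. Sars and Vars stayed so in 13 each, Qars in 15, and Ears2 and Sars2 in 17 each. Farsb, Yars, Aars2, Nars2, Iars2 and Mars2 were differentially expressed in each alternative. Hars2 was as well wherever it was tested, but it passed the main filter only through the KO libraries and the stricter filter removed it. Its calls in the alternatives are therefore no support. Depth limits Yars and Hars2, with 0 to 25 counts in control libraries.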

Other observations

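Control replicate 1 and KO replicate 4 lay at the same end of their groups for many synthetases. They were the most deeply sequenced libraries of their groups and had the least 18S ribosomal RNA, at 0.0504% and 0.559% of the counts. Both were the lowest of their group for 12 genes (Cars, Farsa, Hars, Sars, Tars, Vars, Wars, Aars2, Cars2, Fars2, Sars2 and Tars2) and the highest for 5 (Nars, Qars, Iars2, Nars2 and Rars2). For glutamine, Ears2, Gatb and Qrsl1 of the mitochondrial route were at 1.06, 1.06 and 1.64 on the log2 scale and Qars, the cytosolic enzyme, at -1.09. Gatb and Qrsl1 encode subunits of the same enzyme, of which Gatc was at -0.42 (adjusted p = 0.186), and both were under 10 CPM, where 3740 of 10513 tested genes were upregulated.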
